A study of Gallus gallus with 28 samples.

Results

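The genes described here are 38 symbols of homologous recombination and DNA repair, followed in chicken DT40 B-cell lymphoma lines. They were found as probe sets with a single upper-case symbol in the platform's probe-to-gene table, and a gene was read by its brightest probe set, by mean over 28 arrays. Of the 38 symbols, 36 had a probe set, out of 13009 genes on the array. FANCM had none, and MRE11A is the older name of MRE11, which was measured under the newer one. The 36 genes had 70 probe sets in all, and 0 of the 36 lay near background, taken as a mean under 3.98 log2. The 40% dimmest probe sets lie below this cut, so passing it does not by itself show that a gene is expressed. Single arrays could lie lower, as FANCD2 did at 3.88 in B7.10. Values are log2 signals per probe set, so a difference of 1 is 2-fold. Single genes are compared between arrays only within a probe set, because signals of different probe sets are not on a common scale. Sums of marker lists and means of a gene's probe sets, given below, take the same probe sets in every array. The brightest probe sets weigh most in such a sum.

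DT40 is a transformed chicken B-cell line, known for integrating targeting constructs at the matching locus with unusual ease, and for that reason a standard cell for studying vertebrate DNA repair by gene disruption. Homologous recombination mends a broken chromosome by copying an intact sister. The MRE11-RAD50-NBN complex recognises and trims the ends, BRCA1, PALB2 and BRCA2 act in turn to prepare the trimmed end for strand exchange, and RAD54-type motors remodel the joint. Ku and DNA ligase IV join ends directly, the Fanconi anaemia proteins handle cross-linked DNA, and translesion polymerases copy past lesions. In B cells UNG, mismatch repair and translesion polymerases also process the uracils made by the deaminase AID, and in DT40 the balance between recombination and translesion synthesis shapes immunoglobulin diversification.

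The lines were B41-13, the BTK knockout reconstituted with human BTK, B46-5, the same knockout reconstituted with human BTK that lacks kinase activity, B7.10, the BTK knockout itself, and parental DT40 with its own BTK. BTK is a kinase that relays B-cell receptor signals. After a start without serum, unstimulated cells were harvested at 6 h and 24 h, and cells given the stimulus that the labels call IgM (M4) at 2 h and 6 h. M4 is an antibody to chicken IgM, and its binding engages the B-cell receptor. B7.10 and DT40 had 10 arrays each, with 3 serum batches for the 6 h and 24 h unstimulated and the 6 h stimulated cells and 1 array at 2 h. B41-13 and B46-5 had 4 arrays each, all in serum batch 1. Each array held a pool of 10 experiments, so p-values measure the spread between such pools, and the number of arrays limits the precision. Each line is a single named line in the labels, so what separates lines besides BTK cannot be told apart from BTK.

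BTK, the targeted gene, stood at 4.99 ± 0.18 log2 in B7.10 and 9.91 ± 0.35 in DT40 (SD, n = 10 arrays each). Of 12 measured B-cell markers, 11 lay above 3.98 log2 in every line. Of 8 T-cell markers, 6 also did, among them CD3D at 12.12 in B7.10 and 11.93 in DT40, while CD4 (3.41 and 3.33) and CD28 (3.01 and 3.13) lay near background. In B7.10 and in DT40 the same cut was passed by 5 of 7 myeloid, 5 of 9 fibroblast and 3 of 5 erythroid and thrombocyte markers. The summed linear signal of the 12 B-cell markers ran from 10704 to 14941 in B7.10 and from 8646 to 12180 in DT40. That of 7 myeloid markers ran from 202 to 304 in B7.10 and from 333 to 715 in DT40, and 1 of them, CYBB, was called at -3.16. That of 9 fibroblast markers ran from 322 to 487 in B7.10 and from 522 to 691 in DT40, and 1 of them, BGN, was called at -3.02. Neither sum overlapped between the lines, and the part of these markers in the repair-gene differences was not tested. For 5 arrays the description or source name contradicted the title, which was followed. They were the 6 h stimulated arrays of B7.10 in serum batches 2 and 3, the 6 h stimulated arrays of B41-13 and B46-5, and the 24 h array of B46-5. For B7.10 the description gives serum batch 6 in batch 2, and no stimulation in batch 3. The source name gives B46-5 and 2 hours for the B41-13 array, and 2 hours for the stimulated B46-5 array. For the 24 h array of B46-5 the description gives 6 hours. The batch, stimulation, line or time is thus uncertain for these arrays. Counts without them are given where they differ by over 1.5 times. An exception is B7.10 minus DT40 at stimulated 6 h, where only the B7.10 array of serum batch 1 would remain.

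Cells without BTK differed from parental cells in 12 of the 36 repair genes when the 3 conditions with 3 serum batches were averaged. The recombination genes RAD54B, BRCA2 and BRCA1 were higher in B7.10, together with FANCG, LIG4, MSH6 and UNG. RAD50 and NBN of the end-recognition complex were lower, with XRCC2, BRIP1 and REV3L. At 2 h, which is outside this average and has 1 array per line, RAD50, NBN and BRIP1 were not lower. All 12 averaged differences kept their sign in each of the 3 serum batches. The calls rest on those same batches, and 25 of all 36 members kept their sign. The 12 differences were 1.16-fold to 1.77-fold, and 0 of the 36 reached 2-fold. Members are counted as called where limma gave a Benjamini-Hochberg adjusted p under 0.05 over 38382 probe sets. In this comparison 19.6% of genes and 13.4% of probe sets were called, and the members' share was 33.3%. The members were brighter than genes at large, with a median signal of 7.55 log2 in B7.10 and 7.52 in DT40. Over all genes the medians were 5.85 and 5.91. The part of brightness in the members' shares, here and below, was not tested. Of the 36 members 7 were called higher, against 6.8% of genes, and 5 of 36 lower, against 12.8% of genes. The share called lower was thus close to that of all genes. The median difference was 0.04 over the 36 members and 0.00 over all genes. At an unadjusted p under 0.05 there were 17 members (47.2%), against 31% of genes.

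**Figure D1:**
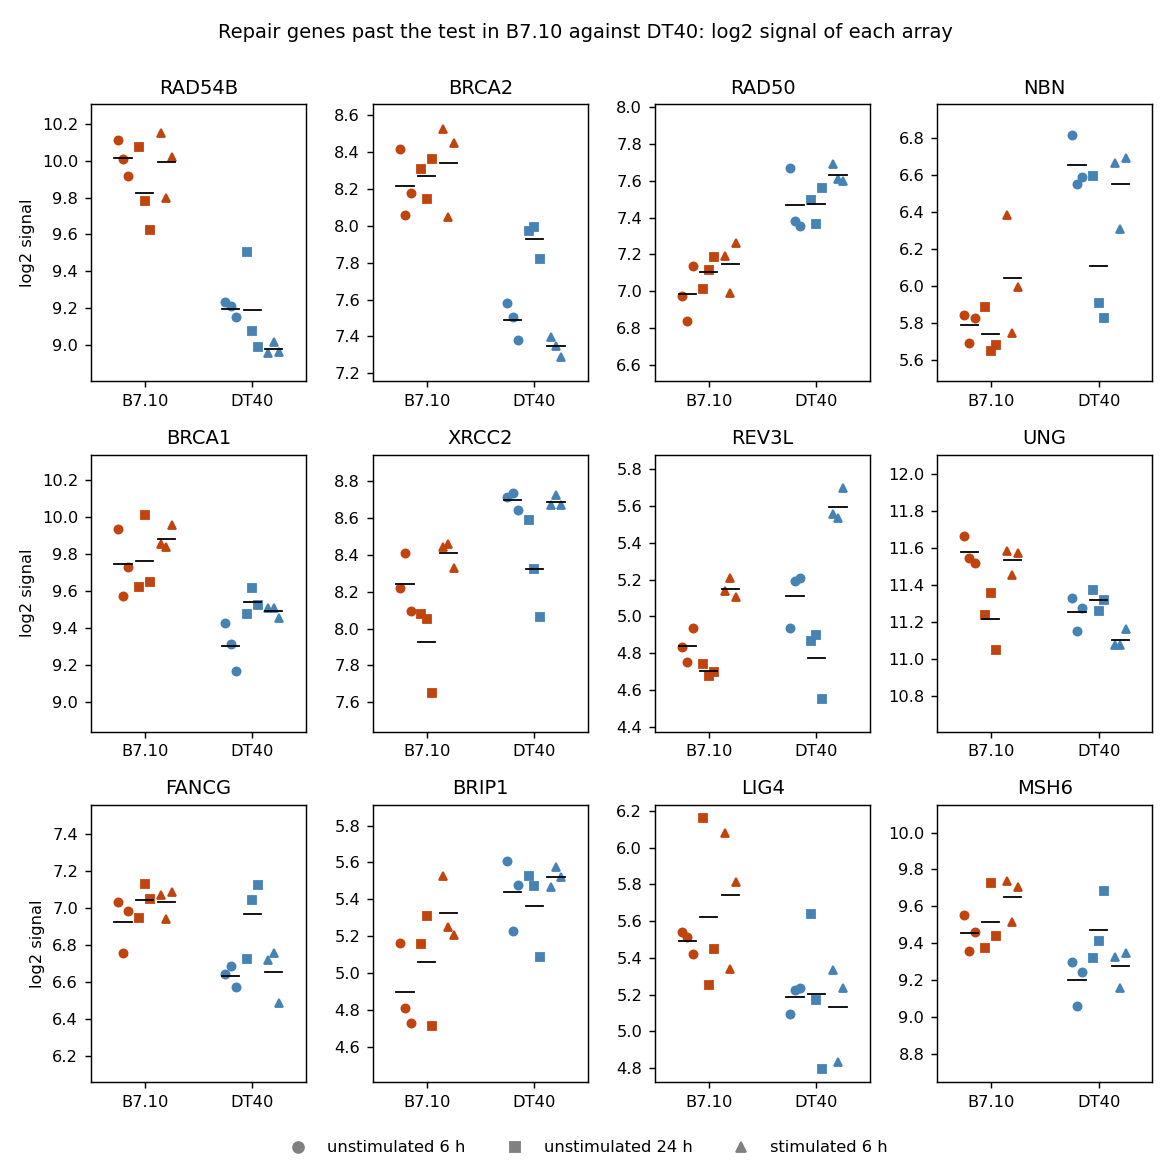
Log2 signal of the 12 repair genes called in B7.10 against DT40, 1 panel per gene, 9 arrays per line. Points are arrays, their shape gives the condition, and bars are the means of 3 arrays. The arrays of the lines do not overlap for RAD54B, BRCA2 and RAD50.

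RAD54B, a motor protein related to RAD54 that acts on joint molecules, had the smallest adjusted p of the members. Its signal in B7.10 was 9.63 at the lowest, 10.01 at the median and 10.15 at the highest of 9 arrays, against 8.96, 9.08 and 9.51 in DT40. No B7.10 array was as low as any DT40 array. The fitted difference was 0.82 ± 0.08 log2 (SE from 6 groups of 3 arrays; limma adjusted p = 2.04e-07). Taken batch by batch it was 0.88, 0.76 and 0.82 for serum batches 1, 2 and 3.

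BRCA2, a mediator that acts on the single-stranded DNA of trimmed ends, was read between 8.05 and 8.52 in B7.10 with a median of 8.31, and between 7.29 and 8.00 in DT40 with a median of 7.51. Here too the lines did not overlap. The difference was 0.69 ± 0.07 log2 (limma adjusted p = 6.83e-07), with 0.76, 0.47 and 0.83 in the serum batches. BRCA1, the ubiquitin ligase that promotes end trimming and BRCA2 loading, overlapped between lines, with 9.58, 9.84 and 10.01 (lowest, median, highest) in B7.10 and 9.17, 9.48 and 9.62 in DT40. It was 0.35 ± 0.06 higher (limma adjusted p = 0.000605). Of its 3 other probe sets, 2 were called the same way, at 0.31 and 0.41, and the third, near background, gave -0.03. BRIP1, the helicase that binds BRCA1, went the other way at -0.34 ± 0.09 (limma adjusted p = 0.0129), with 4.72, 5.16 and 5.52 (lowest, median, highest) in B7.10 and 5.09, 5.48 and 5.61 in DT40, which overlapped. Its other probe set differed by -0.08 and was not called. BARD1, the partner of BRCA1, and PALB2, the bridge to BRCA2, differed by 0.10 and 0.07 and were not called.

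The MRN complex, which senses broken ends and activates ATM, had 2 of its 3 members lower in B7.10. RAD50, its clamp-like ATPase, read 6.84, 7.11 and 7.26 in B7.10 (lowest, median, highest), against 7.36, 7.56 and 7.69 in DT40, without overlap. The difference was -0.45 ± 0.06 log2 (limma adjusted p = 3.22e-05), and both other RAD50 probe sets were called, at -0.50 and -0.45. The lines were apart over 9 arrays each. With the 2 h arrays added, RAD50 in DT40 reached down to 7.06 and the lines overlapped. NBN, the subunit that recruits ATM, read 5.65, 5.82 and 6.38 in B7.10 and 5.82, 6.59 and 6.82 in DT40. These arrays overlapped, with DT40 at 5.91 and 5.82 at 24 h in serum batches 2 and 3. NBN differed by -0.58 ± 0.10 (limma adjusted p = 0.000438). MRE11, the nuclease of the complex, differed by -0.05 and was not called.

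Among the mediators of strand exchange, XRCC2 was lower at -0.38 ± 0.07 log2 (limma adjusted p = 0.00121). Its arrays read 7.65, 8.22 and 8.46 (lowest, median, highest) in B7.10 and 8.06, 8.67 and 8.73 in DT40 and overlapped. XRCC3 and RAD52 differed by 0.03 and 0.00, and neither was called. In the Fanconi anaemia group 1 of 5 members was called. FANCG, of the core complex, read 6.76, 7.03 and 7.13 in B7.10 and 6.49, 6.72 and 7.13 in DT40, overlapping, with a difference of 0.25 ± 0.06 (limma adjusted p = 0.0117). By condition FANCG differed by 0.29 at 6 h without stimulation, 0.38 at 6 h with it and only 0.08 at 24 h. FANCC, FANCD2, FANCI and FANCL lay between -0.06 and 0.08.

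LIG4, the ligase of end joining, had the widest error of the called members. It read 5.25, 5.51 and 6.16 in B7.10 (lowest, median, highest) and 4.79, 5.23 and 5.64 in DT40, a difference of 0.45 ± 0.13 log2 (limma adjusted p = 0.0255). The Ku subunits XRCC5 and XRCC6 and the kinase PRKDC were not called. MSH6, which recognises mispaired bases, was higher by 0.22 ± 0.07 (limma adjusted p = 0.0300), with 9.36, 9.51 and 9.74 in B7.10 and 9.06, 9.32 and 9.68 in DT40. Its other probe sets gave 0.21 and -0.05, and neither was called. By condition MSH6 differed by 0.25 at 6 h without stimulation, 0.38 at 6 h with it and only 0.04 at 24 h. UNG, which removes uracil from DNA, was higher by 0.22 ± 0.05 (limma adjusted p = 0.00699), and its other probe set was called at 0.30. UNG arrays read 11.05, 11.52 and 11.66 in B7.10 and 11.07, 11.26 and 11.37 in DT40. This average holds conditions of opposite sign, with 0.32 at 6 h without stimulation, 0.43 at 6 h with it and -0.10 at 24 h, where UNG was not called (limma adjusted p = 0.652).

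REV3L, the catalytic subunit of the translesion polymerase zeta, was lower, at -0.26 ± 0.06 log2 (limma adjusted p = 0.00426). By condition it was -0.27 at 6 h without stimulation, -0.44 at 6 h with it and only -0.07 at 24 h. Its arrays read 4.68, 4.83 and 5.21 (lowest, median, highest) in B7.10 and 4.55, 5.19 and 5.70 in DT40. REV1, POLH and RAD18 of the same group were not called. None of the 6 checkpoint genes ATM, ATR, CHEK1, CHEK2, CLSPN and TOPBP1 was called by its brightest probe set in limma, and 3 of them passed an unadjusted p under 0.05. Their other probe sets did not all do the same, since 1 of CHEK1 was called at 0.45 where the brightest gave -0.09, and 1 of TOPBP1 was called at 0.39 where the brightest gave 0.22 (limma adjusted p = 0.0723). Neither RecQ helicase, BLM or WRN, was called. The 24 uncalled members lay between -0.16 and 0.22.

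**Figure D2:**
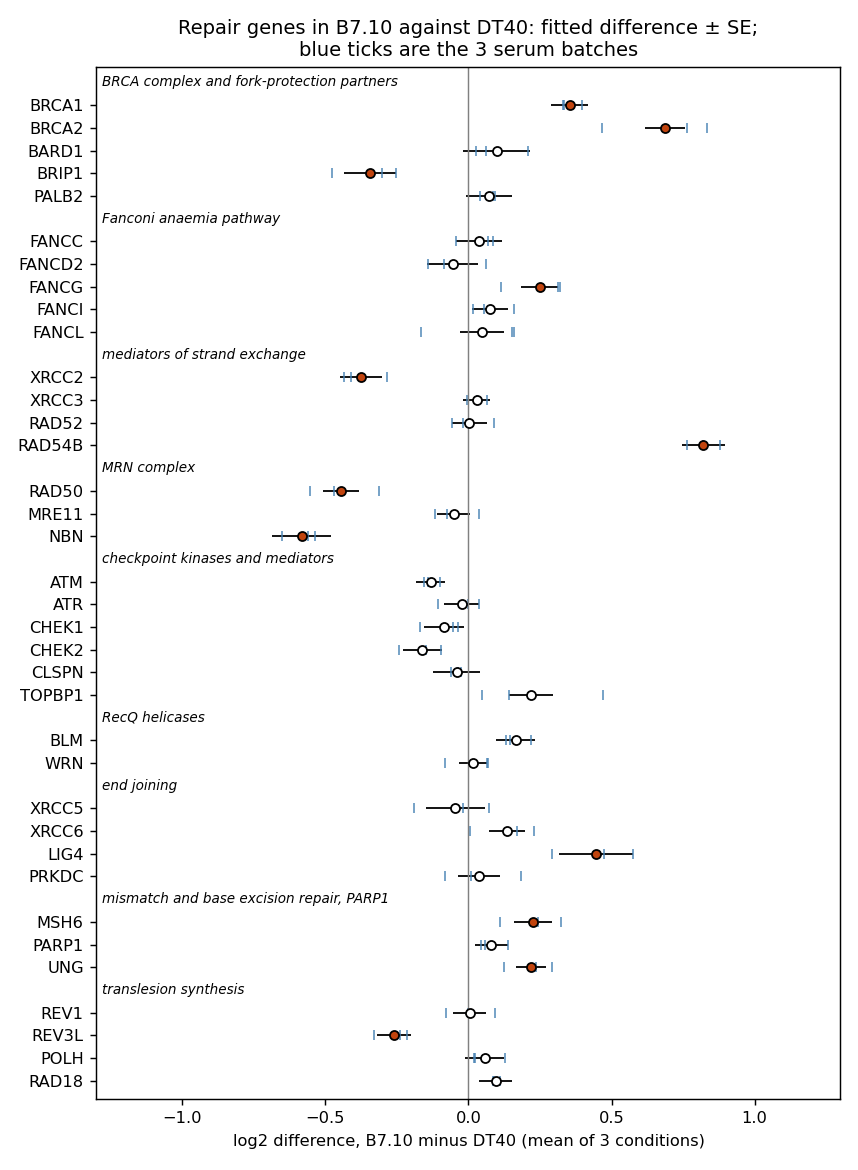
Fitted log2 difference of B7.10 minus DT40 for all 36 repair genes, grouped by role. Points are fitted differences with their SE, filled points are called, and blue ticks are the 3 serum batches. Called genes stand on both sides of 0.

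With a serum batch left out, which leaves fewer arrays, 6 of the 12 calls were lost under at least 1 choice. MSH6 was not called when any 1 of the 3 batches was left out, BRIP1 without batch 2 or 3, FANCG without batch 1 or 3, UNG without batch 1 or 2, LIG4 without batch 3 and REV3L without batch 2. Over all alternatives run the differences of these genes kept their sign and lay between 0.13 and 0.28 for MSH6, -0.39 and -0.21 for BRIP1, 0.21 and 0.32 for FANCG, 0.18 and 0.26 for UNG, 0.36 and 0.56 for LIG4, and -0.30 and -0.23 for REV3L. MSH6 and BRIP1 were also not called without the arrays whose labels disagree, or with the mean of a gene's probe sets. In all, MSH6 was not called under 14 of 28 alternatives and LIG4 under 7. RAD54B, BRCA2, RAD50, NBN, BRCA1 and XRCC2 were called under every alternative run. Over 9 arrays per line, without the 2 h arrays, the lines did not overlap for 3 of 36 members (8.33%) and for 4.4% of all genes.

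S-phase genes were called in this comparison too. Of 43 measured genes of replication and S phase, 18 were higher and 2 lower (46.5%), with a median of 0.13. They included the clamp loader subunit RFC5 at 0.44 and thymidine kinase TK1 at 0.32, and RFC3 at -0.28 and the origin subunit ORC3 at -0.26. Of 22 mitosis genes, 2 were higher (TOP2A at 0.32, NDC80 at 0.20) and 1 lower (AURKB at -0.20). The part of these genes in the repair-gene differences was not tested. Of 93 other repair genes, 10 were higher and 11 lower (22.6%), with a median of 0.02. Of the 32 recombination genes among them, 5 were higher and 4 lower. ZSWIM7, a partner of recombination mediators, was higher at 0.40 and RMI2, of the BLM complex, at 0.36, while the deubiquitinase BRCC3 was lower at -0.35. In end joining the polymerase POLL was higher at 0.66. In mismatch repair PMS2 was higher at 0.41 and the meiotic MSH4 lower at -0.35. In translesion synthesis the primase PRIMPOL was higher at 0.63, and the polymerase POLN and the ubiquitin-conjugating enzyme UBE2A lower at -0.44 and -0.18. Of the clamp and checkpoint genes, RAD9A was higher at 0.21 and its partner RAD1 lower at -0.31, with CINP at -0.27. In base excision repair the glycosylase MBD4 was higher at 0.15, and NTHL1 and MPG lower at -0.37 and -0.20. Of 12 other Fanconi anaemia genes, 0 were called in limma, with 2 at an unadjusted p under 0.05.

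Within single conditions fewer members were called, with 3 arrays against 3. In unstimulated cells at 6 h there were 7 of 36, against 7.42% of genes. RAD54B (0.81), BRCA2 (0.73), BRCA1 (0.45) and UNG (0.32) were higher, and NBN (-0.87), RAD50 (-0.48) and XRCC2 (-0.46) lower. The count was 4 without the DT40 array of batch 1, without that of batch 3 or without the B7.10 array of batch 3. UNG was not called under 8 of 14 alternatives, XRCC2 under 6, BRCA1 under 5 and RAD50 under 2. RAD54B, BRCA2 and NBN were called under all 14. With serum batch as a block BRIP1 was called as well, at -0.54 (limma adjusted p = 0.0164). In unstimulated cells at 24 h the only member called was RAD54B, at 0.64 ± 0.13 (limma adjusted p = 0.00617), against 6.93% of genes. That count was 2 without the DT40 array of batch 3 or without the B7.10 array of batch 1, and 4 with serum batch as a block, which added XRCC2 (-0.40), RAD50 (-0.37) and FANCD2 (-0.47). With only the arrays compared it was 0, and RAD54B was not called (limma adjusted p = 0.124). In stimulated cells at 6 h there were 6, against 7.89% of genes, with BRCA2 (0.99), RAD54B (1.01), UNG (0.43) and BRCA1 (0.39) higher, and RAD50 (-0.48) and REV3L (-0.44) lower. RAD54B, at 2.02-fold, was the only member past 2-fold there. With the block NBN at -0.51 (limma adjusted p = 0.0151) and LIG4 at 0.61 (limma adjusted p = 0.0467) were called as well. BRCA1 was not called when any 1 of the 6 arrays was left out, and REV3L without the batch 3 array of either line. RAD50 was not called without the B7.10 array of batch 2 or with the mean of its probe sets. Without the arrays whose labels disagree only the B7.10 array of serum batch 1 would remain, so that count is not given.

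BRCA2 illustrates the 6 h and 24 h values. It read 8.42, 8.06 and 8.18 in B7.10 at 6 h, against 7.58, 7.51 and 7.38 in DT40. At 24 h it read 8.31, 8.15 and 8.36 in B7.10, against 7.97, 8.00 and 7.82 in DT40. The DT40 array was higher at 24 h than at 6 h in 3 of 3 batches, and the B7.10 array in 2 of 3. The difference between lines in this change was -0.38 ± 0.17 and was not called (limma adjusted p = 0.811).

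Stimulation for 6 h called none of the 36 members. In B7.10 limma called 0, and 0% of genes were called, with 5 members (13.9%) and 14.9% of genes at an unadjusted p under 0.05. The median difference there was 0.18 over the members, 0.09 after cyclic loess, and 0.01 over all genes. In DT40 it called 0, against 0.0922% of genes, with 3 members (8.33%) and 7.76% of genes at an unadjusted p under 0.05. CLSPN, the claspin adaptor that lets ATR activate CHEK1, read 6.82, 6.73 and 6.72 in stimulated B7.10 cells and 6.47, 6.12 and 6.00 in unstimulated ones. The groups did not overlap. The difference was 0.56 ± 0.14 (limma adjusted p = 0.0925), and 0.0348 as adjusted p with serum batch as a block. Labels disagree for the stimulated B7.10 arrays of serum batches 2 and 3, and the description of batch 3 gives no stimulation. Those arrays also enter the B7.10 counts above and the difference between the lines below, and without them only serum batch 1 would remain. REV3L in DT40 read 5.55, 5.53 and 5.70 in stimulated cells and 4.94, 5.19 and 5.21 in unstimulated ones, a difference of 0.48 ± 0.10 (limma adjusted p = 0.162). For the difference of the response between the lines limma called 0 members, against 0.00769% of genes, with 0 members and 3.87% of genes at an unadjusted p under 0.05.

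Culture for 24 h instead of 6 h also called none. In B7.10 limma called 0, against 0.277% of genes, with 2 members (5.56%) and 14.5% of genes at an unadjusted p under 0.05. In DT40 it called 0, against 0.753% of genes, with 13 members (36.1%) and 15.5% of genes at an unadjusted p under 0.05, and 4 members were called without the 24 h DT40 array of serum batch 1. NBN in DT40 read 6.59, 5.91 and 5.82 at 24 h and 6.82, 6.55 and 6.59 at 6 h. Its difference was -0.54, and it was called with serum batch as a block (limma adjusted p = 0.0355). The difference of the 24 h change between lines was 0.50 for NBN and -0.63 for FANCD2. None of the 36 was called for it in limma, against 0.0154% of genes, with 4 members (11.1%) and 5.39% of genes at an unadjusted p under 0.05. Between serum batches an F test in limma called 0 of 36, the lowest adjusted p being 0.0759 (NBN), against 0.969% of genes. There 13 members (36.1%) and 19% of genes had an unadjusted p under 0.05.

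The reconstituted lines were set against the knockout and the parental line in serum batch 1, where each line had 4 arrays, 1 per condition. A line difference was tested there against the residual spread pooled over the 4 lines, and no pool was repeated. The comparisons share arrays of B7.10 or DT40, and their values stand side by side only. B41-13 differed from B7.10 in 12 of 36 members, against 14.5% of genes, with 10 lower and 2 higher. Of the lower members, NBN, BRCA2, BRIP1 and TOPBP1 were not called after cyclic loess between arrays, so the split depends on how arrays were normalized. The median was -0.19 over the members and -0.01 over all genes. Without the 2 h arrays, or without the stimulated 6 h arrays, 6 members were called.

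**Figure D3:**
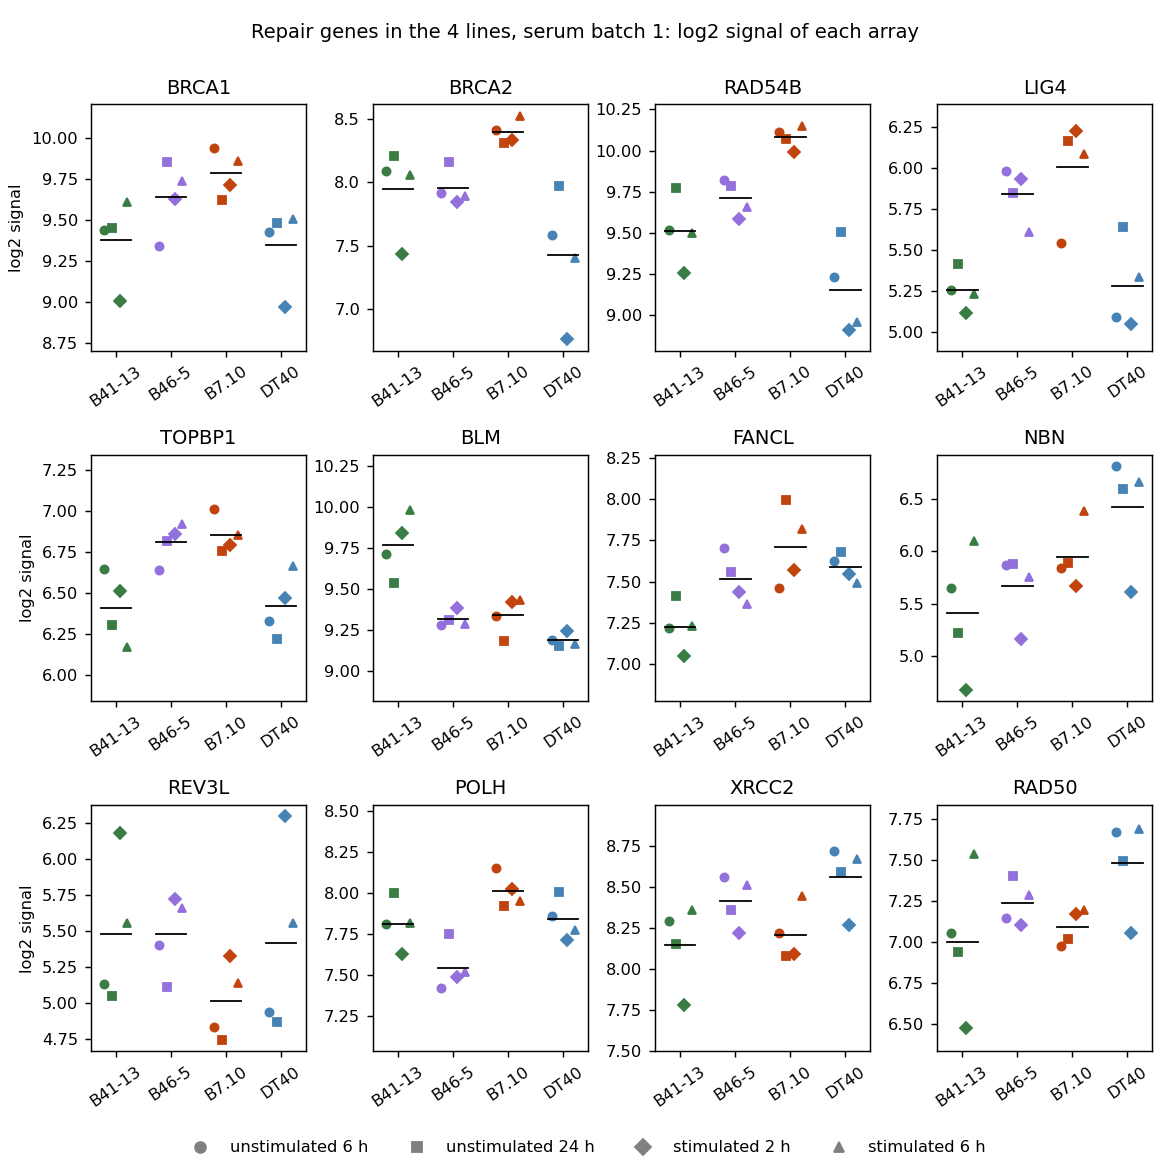
Log2 signal of 12 repair genes in the 4 lines in serum batch 1, 4 arrays per line. Points are arrays, their shape gives the condition, and bars are the means of 4 arrays. BLM in B41-13 lies above the other lines, and LIG4 in B41-13 and DT40 lies below most arrays of B46-5 and B7.10.

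RAD54B read 9.52, 9.77, 9.26 and 9.50 in B41-13 (unstimulated 6 h and 24 h, stimulated 2 h and 6 h), against 10.11, 10.07, 9.99 and 10.15 in B7.10. These arrays of serum batch 1 did not overlap, and the difference was -0.57 ± 0.09 (limma adjusted p = 0.000326). Over its 10 arrays B7.10 reached down to 9.63. LIG4 read 5.26, 5.41, 5.11 and 5.23 in B41-13, against 5.54, 6.16, 6.22 and 6.08 in B7.10. These arrays did not overlap either, and the difference was -0.75 ± 0.13 (limma adjusted p = 0.000791). Over its 10 arrays, though, LIG4 in B7.10 reached down to 5.25, within the range of B41-13. BLM, the helicase that dissolves double Holliday junctions, moved the other way. It read 9.71, 9.54, 9.84 and 9.98 in B41-13, against 9.33, 9.19, 9.42 and 9.44 in B7.10, a difference of 0.42 ± 0.08 (limma adjusted p = 0.00127). FANCL, the ubiquitin ligase of the Fanconi core complex, read 7.22, 7.41, 7.05 and 7.23 in B41-13, against 7.46, 8.00, 7.57 and 7.82 in B7.10, at -0.49 ± 0.10 (limma adjusted p = 0.00236). The other lower genes were NBN (-0.54), BRCA2 (-0.45), TOPBP1 (-0.45), BRCA1 (-0.41), BRIP1 (-0.38), FANCC (-0.35) and XRCC6 (-0.35), and REV3L was higher at 0.47. BRCA1, BRCA2, BRIP1, TOPBP1 and REV3L were not called without the arrays whose labels disagree. Over all alternatives run, those that left out a condition among them, BRIP1 was not called in 6 of 9 and BRCA2 in 5. BRCA1 and TOPBP1 were not called in 4 each, REV3L in 3 and FANCC in 1. After cyclic loess between arrays NBN, BRCA2, BRIP1 and TOPBP1 were not called. NBN was also not called without the 24 h or the 2 h arrays. XRCC6 was not called without the unstimulated 6 h, the 2 h or the stimulated 6 h arrays. RAD54B, LIG4, FANCL and BLM were called under every alternative run.

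B46-5 differed from B7.10 in 3 of 36 members, a share close to that of all genes (9.95%). RAD54B read 9.82, 9.79, 9.58 and 9.65 in B46-5, below every B7.10 array of serum batch 1, at -0.37 ± 0.09 (limma adjusted p = 0.0153). Over its 10 arrays B7.10 reached down to 9.63. REV3L read 5.40, 5.11, 5.72 and 5.66 in B46-5, against 4.83, 4.74, 5.32 and 5.14 in B7.10, at 0.46 ± 0.13 (limma adjusted p = 0.0325). POLH, the translesion polymerase eta, read 7.42, 7.75, 7.49 and 7.52 in B46-5, against 8.15, 7.92, 8.03 and 7.95 in B7.10, at -0.47 ± 0.09 (limma adjusted p = 0.00152). Its 3 other probe sets, which are dim, gave 0.06, 0.06 and 0.07 and were not called. The count was 1 without the arrays whose labels disagree, without the unstimulated 6 h arrays or without the stimulated 6 h arrays. POLH was the member left in each case, and it was not called with the mean of its probe sets. RAD54B and REV3L were each not called under 4 of 9 alternatives.

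Set against each other, B41-13 differed from B46-5 in 6 of 36 members, a share close to that of all genes (15.3%). BLM was higher in B41-13 at 0.45 ± 0.08 (limma adjusted p = 0.000664), with 9.29, 9.31, 9.39 and 9.29 in B46-5. LIG4 was lower at -0.59 ± 0.13 (limma adjusted p = 0.00546), with 5.98, 5.84, 5.93 and 5.61 in B46-5. TOPBP1, the activator of ATR, was lower at -0.40 ± 0.11 (limma adjusted p = 0.0213), with 6.64, 6.31, 6.51 and 6.17 in B41-13 and 6.64, 6.82, 6.86 and 6.92 in B46-5. PRKDC, the DNA-dependent protein kinase, was lower at -0.32, with 7.01, 6.97, 7.26 and 7.40 in B41-13 and 7.24, 7.47, 7.78 and 7.44 in B46-5. XRCC2 (-0.27) and RAD18 (-0.28) were lower as well. After cyclic loess between arrays 3 members were called higher and 1 lower, in place of 1 and 5. BLM and LIG4 were still called there, while TOPBP1, PRKDC, XRCC2 and RAD18 had -0.34, -0.25, -0.20 and -0.21 and were not (limma adjusted p 0.0653 to 0.0827). Over all alternatives run TOPBP1 lay between -0.54 and -0.20 and was not called in 5 of 9. PRKDC was also not called in 5 of 9, and XRCC2 and RAD18 in 6 of 9 each. RAD18 was not called with the mean of its probe sets. Of its 4 other probe sets 0 were called the same way, and 3 had the sign of the brightest. The count was 3 without the unstimulated 6 h arrays or without the 24 h arrays, 2 without the 2 h arrays, and 2 without the arrays whose labels disagree.

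Against parental cells, B41-13 differed in 8 of 36 members, against 18.4% of genes, and B46-5 in 7 of 36, against 15.6% of genes. Both shares lay only a little above those of all genes. NBN was lower in both. It read 5.65, 5.22, 4.68 and 6.10 in B41-13 and 5.87, 5.88, 5.16 and 5.76 in B46-5, against 6.82, 6.59, 5.61 and 6.66 in DT40. The differences were -1.01 ± 0.15 for B41-13 (limma adjusted p = 0.000112) and -0.75 ± 0.15 for B46-5 (limma adjusted p = 0.00189). BLM, whose B41-13 values stand above, read 9.19, 9.16, 9.25 and 9.17 in DT40, below every B41-13 array, at 0.58 ± 0.08 (limma adjusted p = 4.91e-05). XRCC2 read 8.29, 8.15, 7.78 and 8.36 in B41-13, against 8.71, 8.59, 8.26 and 8.67 in DT40, lower in each condition, at -0.42 ± 0.08 (limma adjusted p = 0.00139). BRIP1 read 4.66, 4.94, 4.76 and 5.25 in B41-13, against 5.61, 5.53, 5.01 and 5.47 in DT40, at -0.50 ± 0.12 (limma adjusted p = 0.00669). Each condition was lower for BRIP1 too, though the arrays of the lines overlapped. RAD50 (-0.48) and FANCL (-0.36) were lower and RAD54B (0.36) and BRCA2 (0.52) higher in B41-13. RAD54B was not called under 3 of 9 alternatives, among them without the arrays whose labels disagree, and RAD50 under 2 of 9. After cyclic loess 4 were higher and 4 lower, in place of 3 and 5, and FANCL was not called.

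In B46-5 RAD54B, whose values stand above, lay over every DT40 array, which read 9.23, 9.51, 8.91 and 8.96, at 0.56 ± 0.09 (limma adjusted p = 0.000307). LIG4 in DT40 read 5.09, 5.64, 5.05 and 5.33, and B46-5 was higher at 0.56 ± 0.13 (limma adjusted p = 0.00741), with 1 of its arrays below the 24 h array of DT40. BRCA2 read 7.91, 8.16, 7.84 and 7.89 in B46-5, against 7.58, 7.97, 6.76 and 7.40 in DT40, at 0.52 ± 0.14 (limma adjusted p = 0.0183). The 2 h array of DT40 stood lowest, and without the 2 h arrays the difference was 0.34 and not called (limma adjusted p = 0.102). BRCA2 was not called under 4 of 9 alternatives in B46-5 and under 3 of 9 in B41-13. TOPBP1 (0.39) was higher as well, though not called under 4 of 9 alternatives, and POLH (-0.30) and CHEK2 (-0.27) were lower. POLH was 0.0083 with the mean of its probe sets, since 0 of its 3 other probe sets had the sign of the brightest, and it was not called under 5 of 9 alternatives, nor CHEK2 under 6 of 9. Without the unstimulated 6 h arrays B41-13 had 4 called members. For B46-5 the count was 2 without the 2 h arrays, 4 without the stimulated 6 h arrays and 3 without the arrays whose labels disagree.

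Stimulation for 2 h was set against 6 h without stimulation over the 4 lines of serum batch 1, and stimulation and time cannot be told apart there. Of 36 members 9 were called, against 11% of genes and 7.96% of probe sets. REV3L, REV1 and XRCC3 were higher at 2 h, and NBN, BARD1, RAD52, MSH6, FANCG and XRCC2 lower. The median was -0.09 over the members and -0.05 over all genes. Mitosis genes were lower in 11 of 22 and S-phase genes in 9 of 43, with 1 of those higher, and their part in the repair-gene values was not tested.

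REV3L read 6.18, 5.72, 5.32 and 6.29 at 2 h in B41-13, B46-5, B7.10 and DT40, against 5.13, 5.40, 4.83 and 4.94 at 6 h without stimulation. Each line was higher at 2 h, by 0.80 ± 0.13 on average (limma adjusted p = 0.000738). BARD1 read 6.96, 7.28, 7.36 and 7.14 at 2 h, against 8.00, 8.03, 7.83 and 7.84, lower in each line, at -0.74 ± 0.12 (limma adjusted p = 0.00076). RAD52, an annealing protein that assists recombination, read 5.60, 6.36, 6.22 and 5.99 at 2 h, against 6.65, 6.76, 6.54 and 6.70, at -0.62 ± 0.10 (limma adjusted p = 0.00113). MSH6 read 8.81, 8.91, 9.09 and 8.67 at 2 h, against 9.38, 9.29, 9.55 and 9.30, at -0.51 ± 0.09 (limma adjusted p = 0.00142). All 4 lines moved the same way for each of these genes. The fitted difference was -0.77 for NBN and 0.41 for REV1, the scaffold of translesion polymerases. FANCG (-0.37) and XRCC2 (-0.36) were lower and XRCC3 (0.26) higher. XRCC3 was not called when any 1 of the 4 lines was left out, XRCC2 without B41-13, B46-5 or DT40, and FANCG without B41-13.

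**Figure D4:**
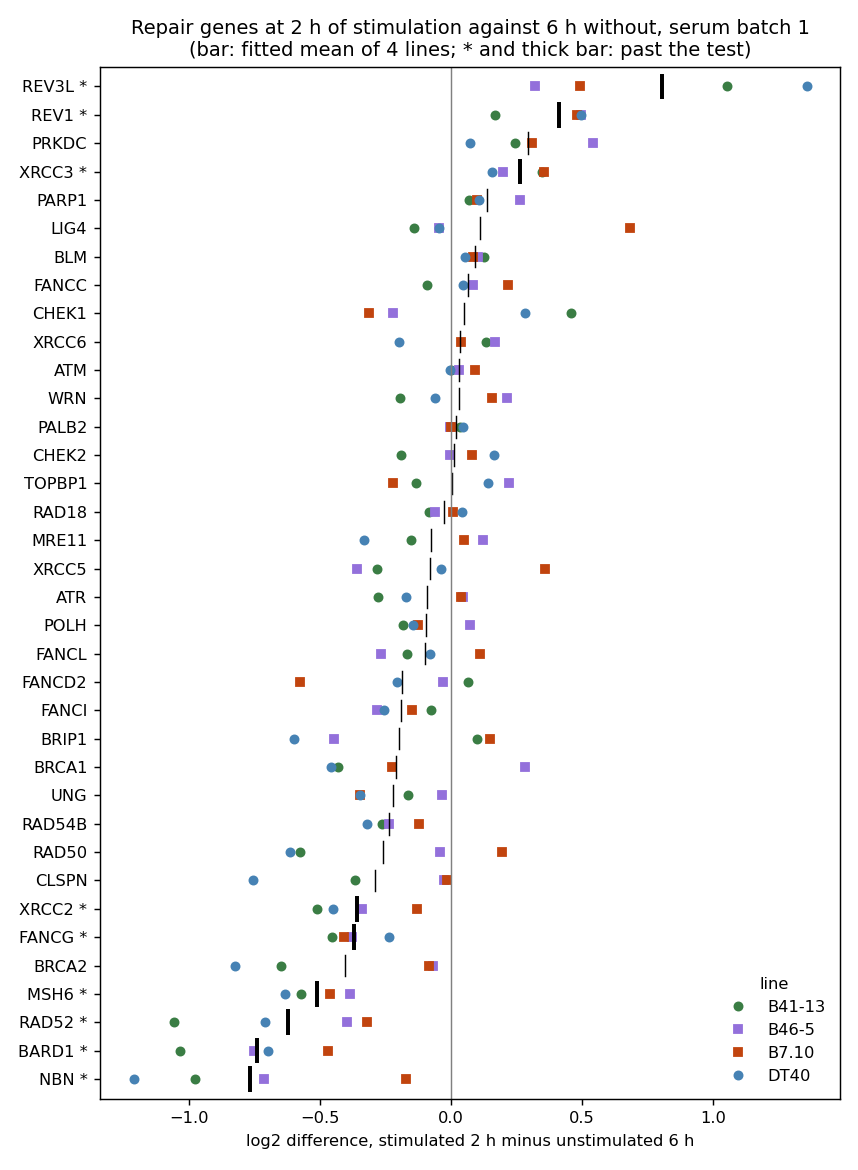
Log2 difference of stimulated 2 h minus unstimulated 6 h cells for 36 repair genes in serum batch 1. Points are the 4 lines, circles for the lines with active BTK and squares for those without, and bars are the fitted means of 4 lines, thick where called. REV3L stands highest and NBN lowest by the fitted mean.

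Each line had 1 array per condition for the change at 2 h, so the lines are given side by side. NBN differed by -0.98 in B41-13, -0.71 in B46-5, -0.17 in B7.10 and -1.21 in DT40. REV3L differed by 1.05, 0.32, 0.49 and 1.36 in the same order, and BRCA2 by -0.65, -0.07, -0.08 and -0.82. A contrast of the lines with active BTK (B41-13, DT40) minus those without (B46-5, B7.10), chosen after these values were seen, called 0 of 36 in limma, against 0.384% of genes, with 9 members (25%) and 8.7% of genes at an unadjusted p under 0.05. It was 0.80 ± 0.16 for REV3L (adjusted p = 0.0583), 0.64 ± 0.18 for CHEK1, the effector kinase of ATR, -0.67 ± 0.19 for RAD50 and -0.66 ± 0.19 for BRCA2. After cyclic loess between arrays REV3L was called at 0.84 (adjusted p = 0.0304).

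At 6 h of stimulation over the 4 lines limma called 0 of 36, against 0.00769% of genes, with 5 members and 1833 of 13009 genes at an unadjusted p under 0.05. REV3L there read 5.55, 5.66, 5.14 and 5.55 in B41-13, B46-5, B7.10 and DT40, an average 0.40 above the unstimulated cells (limma adjusted p = 0.198). At 24 h without stimulation it called 0 of 36, against 1.27% of genes, with 2 members (5.56%) and 15.1% of genes at an unadjusted p under 0.05.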

How the data were processed

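RNA of 28 samples was measured on Affymetrix chicken arrays. The deposited values are log2 signals per probe set, made by the authors with RMA per the submitters' processing notes. RMA evens out the distributions of arrays, so a change shared by most genes is not seen. The sources used here give no version. Array medians lay between 4.37 and 4.50 log2.

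Of 38535 probe sets, 153 controls were left out. Of the 38382 tested, 27168 had 1 symbol, 177 several and 11037 none. All 36 members matched the RefSeq gene table by gene ID, used for names only. Genes were read by their brightest probe set.

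DT40 and B7.10 in 3 conditions and 3 serum batches made 6 groups, fitted by their means in limma 3.58.1 in R 4.3.3, leaving 12 residual degrees of freedom. Serum batch 1, with 16 arrays, had a model of line and condition without interaction, leaving 9. The contrast by BTK activity at 2 h is an interaction, and came from a separate fit leaving 6. The p-values of limma were adjusted by Benjamini-Hochberg across the whole table, and 0.05 was the threshold for a call. Tables and figures were made in Python 3.11.15 with pandas 2.3.3 and matplotlib 3.10.9. The fits were tested on simulated data.

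Replicate numbers are serum batches, per the labels, and pair the arrays. After group means were removed, the median correlation was 0.122 for 45 pairs of arrays sharing a batch and -0.06 for 90 other pairs.

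The members and lists were chosen with earlier results of these data known. Array values, as lowest, median and highest for groups over 5, were given for members called in B7.10 against DT40 over 3 conditions. In comparisons of conditions or with B41-13 and B46-5 they were given for up to 4 members by smallest adjusted p. From related lists up to 2 called genes each way were named, and some recombination genes that this rule would name are not reported here. CLSPN, the uncalled members and other probe sets were named after their values were seen. Alternatives were the batch block, only the arrays compared, cyclic loess, no dim probe sets (40% dimmest), trend and robust moderation, the mean of a gene's probe sets, and leaving out arrays. The contrast by BTK activity was added after seeing the data. Promoter sequences were not analysed here.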

Additional observations from a re-analysis of the deposited data

How the results depend on the processing

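For B7.10 minus DT40 over 3 conditions the count of 12 called members ran from 8 to 13 when a batch or array was left out. Those ranges were 4 to 5 at unstimulated 6 h, 1 to 2 at 24 h, 4 to 6 at stimulated 6 h, 0 to 4 for 24 h in DT40 and 0 to 1 in B7.10. In serum batch 1 they were 6 to 8 (B41-13 minus B7.10), 1 to 4 (B46-5 minus B7.10), 2 to 4 (B41-13 minus B46-5), 4 to 7 (B41-13 minus DT40), 2 to 6 (B46-5 minus DT40) and 6 to 8 (2 h stimulation). With serum batch as a block, which pairs the arrays, 4 members were called in B7.10 minus DT40 at 24 h, 1 for stimulation in B7.10 and 1 for 24 h in DT40, and the block moved no other count of members by over 1.5 times. At 24 h, B7.10 minus DT40 gave 0 with only the arrays compared, 2 without dim probe sets and 2 with the mean of a gene's probe sets. That mean gave 10 for B41-13 minus B46-5 and turned POLH in B46-5 minus DT40 to 0.0083. Without the arrays whose labels disagree the counts were 1 (B46-5 minus B7.10), 2 (B41-13 minus B46-5) and 3 (B46-5 minus DT40). Cyclic loess gave 1 in the contrast by BTK activity. The causes were not tested. Of 71 called gene results, 28 were called under every alternative, and 772 of 937 alternative values were called, with 1 reversed. Probe sets under 3.98 log2 are near background, and differences there are limited.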
